A study of Homo sapiens with 3 samples.

Results

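The PI3K-like giant kinases, usually called the PIKK family, were examined in RBFOX2-APOBEC1 STAMP data. STAMP fuses an RNA-binding protein, here the splicing regulator RBFOX2, to APOBEC1, an enzyme that deaminates nearby C bases of RNA to U. The members were chosen by name, as PRKDC, ATM, ATR, MTOR, SMG1 and TRRAP, and a cluster belonged to a member when its deposited label named that gene. Clusters are regions in which the authors' FLARE workflow found more C-to-U editing than its background model. The members held 32 of 40843 clusters, which were 12 of 14295 in replicate 1, 13 of 15181 in replicate 2 and 7 of 11367 in replicate 3. All samples form 1 group, human embryonic kidney HEK293T cells of the lenti-X line HEK293XT with a WT genotype, in which doxycycline induced the fusion for 72 h. The labels give transient transfection as the treatment and also speak of stable cell lines. Cells without the fusion, or with APOBEC1 alone, were not analysed here, so editing guided by RBFOX2 and editing by the free activity of the enzyme cannot be told apart.

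PIKK proteins are very large kinases built from long helical repeats, with a kinase domain near the C-terminus. PRKDC encodes the catalytic subunit of DNA-PK, which joins broken DNA ends, ATM responds to double-strand breaks, and ATR responds to stalled replication forks. MTOR couples nutrients to cell growth, SMG1 phosphorylates UPF1 in nonsense-mediated mRNA decay, and TRRAP, which has lost kinase activity, is a scaffold of histone acetyltransferase complexes. RBFOX2 is known for binding GCAUG elements in pre-mRNA and in mature transcripts.

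The clusters of each replicate contained 1104249 to 1731304 reads, which is not the depth of the libraries, and had a median read depth of 21.1 to 25.1. Replicate 3 had the fewest clusters and reads. Of 7 markers of the line, NEFL, NEFM and ENO2, which are neuronal genes that HEK293 lines express, had clusters in all 3 replicates, and VIM in 1, while KRT8, KRT18 and NES had none. None of 9 markers of liver, blood, fibroblasts, muscle or mature kidney had a cluster. A cluster needs both reads and edits, so its absence does not measure expression.

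Editing in the family was concentrated in PRKDC. PRKDC held 76 edited bases in replicate 1, 37 in replicate 2 and 32 in replicate 3, which were 77.6%, 53.6% and 80.0% of the edited bases of all members. Among genes with a cluster, PRKDC ranked 179 of 6999, 537 of 7188 and 430 of 6037 by edited bases in replicates 1, 2 and 3. No other member exceeded 15 edited bases in any replicate. Such totals grow with transcript length and read depth and do not compare the rate of editing between genes. PRKDC, ATM and SMG1 had clusters in every replicate, MTOR in replicates 1 and 2, and TRRAP in replicates 2 and 3. ATR had no cluster in any replicate. Over the whole series, 37.9% of 9904 genes with a cluster had one in all 3 replicates, against 3 of the 5 members with a cluster.

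**Figure D1:**
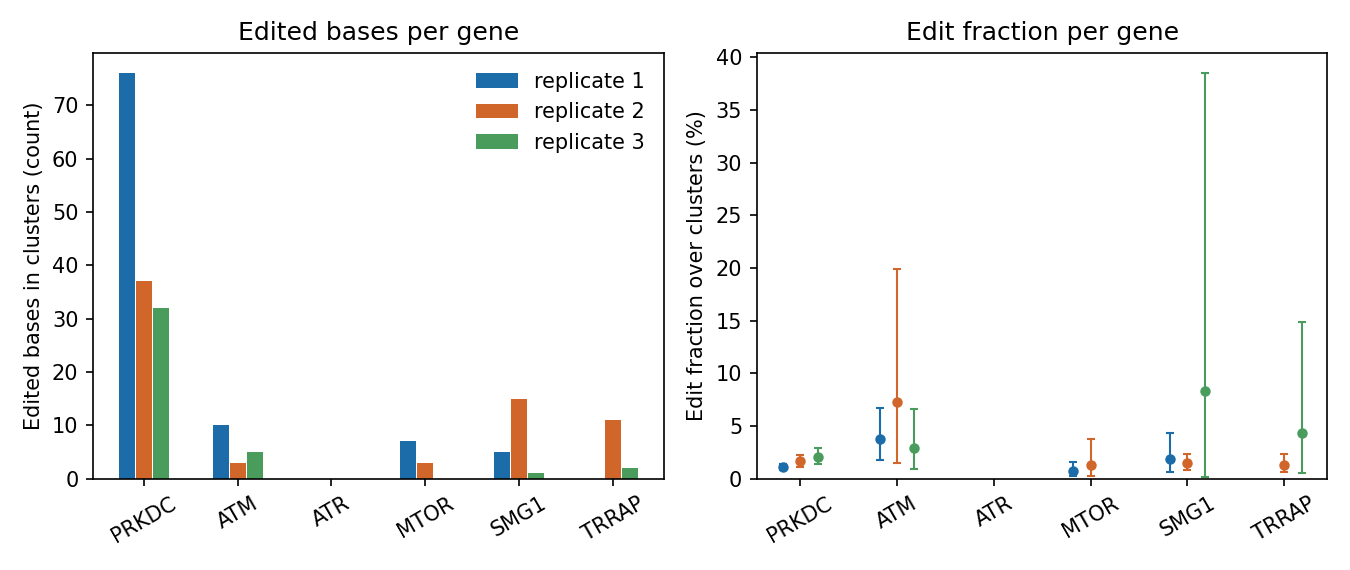
Edited bases in clusters (left, count) and edit fraction over clusters (right, percent) for each member in replicates 1 to 3, with exact 95% binomial intervals that cover counting error only. PRKDC had 32 to 76 edited bases and, within each replicate, the narrowest interval, while the SMG1 value of replicate 3 rested on 1 edited base, and ATR had no cluster.

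The clusters of PRKDC fell mainly into a pair of neighbouring loci in its 3'-terminal exon. A locus is a set of clusters of different replicates that share at least 1 base and the strand. The files index exons by coordinate, since the index rose with position in 3826 of 3826 neighbouring pairs on the minus strand and in 3942 of 3945 on the plus strand. Index 0 of a minus-strand gene such as PRKDC is therefore its 3'-terminal exon. The index is that of the files and not the exon number of a transcript. On hg19, with positions as deposited, the locus nearest to the 3' end lay at chr8:48685834-48686029. The second, 90 bases further upstream in the transcript, lay at chr8:48686119-48686299. Together they held 81.6% of the edited bases of PRKDC in replicate 1 and 100% in replicates 2 and 3.

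The edit fraction of the upstream locus was close between replicates, over clusters that differed in extent. Its clusters spanned 165, 120 and 120 bases with 19, 11 and 13 C bases in replicates 1, 2 and 3. Its edit fraction, the edited bases over the C bases covered by reads, was 2.39% in replicate 1 (29 of 1213), 2.36% in replicate 2 (22 of 933) and 2.73% in replicate 3 (6 of 220), or 2.49% ± 0.204 (SD, n = 3). The exact 95% intervals were 1.61% to 3.42%, 1.48% to 3.55% and 1.01% to 5.84%, and overlapped one another. That of replicate 3 rests on 6 edited bases and is wide, so the overlap does not show that the replicates are the same. The values also come from partly different C bases. Edited reads made up 6.94%, 8.56% and 7.69% of its reads, or 7.73% ± 0.807 (SD, n = 3). Of the 1586 loci found in all 3 replicates, 14.2% had a higher mean edit fraction, and the median of these loci was 1.13%. By the SD of the edit fraction the upstream locus ranked 603 of 1586 from the smallest. The SD was not scaled to the mean, so this rank does not show whether the steadiness of the locus was unusual.

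The edit fraction of the locus nearest to the 3' end varied more, over clusters that differed in extent between replicates. It was 0.733% in replicate 1 (33 of 4503), 1.14% in replicate 2 (15 of 1312) and 1.98% in replicate 3 (26 of 1312), or 1.29% ± 0.637 (SD, n = 3). Edited reads made up 4.32%, 6.22% and 5.86% of its reads, or 5.47% ± 1.01 (SD, n = 3), a spread close to that of the upstream locus. The interval of replicate 1, 0.505% to 1.03%, lay below that of replicate 3, 1.30% to 2.89%. These intervals treat edited bases as independent, although 33 lay on 19 edited reads in replicate 1 and 26 on 14 in replicate 3. Their separation therefore does not show that the replicates differ. In replicate 3 this locus consisted of 2 clusters, with read depths of 141 and 26.9, and its edited and covered bases are summed over both. The cluster spanned 120 bases with 20 C bases in replicate 1 and 60 with 7 in replicate 2. Those of replicate 3 spanned 45 bases with 7 and 90 with 12, and the latter did not overlap the cluster of replicate 2. The values of the replicates thus come from partly different C bases. The locus nearest to the 3' end was edited less than the upstream locus in each replicate, by 1.21 ± 0.456 percentage points (SD, n = 3). This comparison was made after the values were seen and was not tested. The read depth ran the other way, since the deepest cluster of the locus nearest to the 3' end had 212, 174 and 141 reads in replicates 1, 2 and 3, against 67.5, 80.9 and 21.1 at the upstream locus. The part of read depth in this difference was not tested. Edited reads carried 1.56 ± 0.423 edited bases each at the locus nearest to the 3' end and 1.503 ± 0.383 at the upstream locus (SD, n = 3).

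**Figure D2:**
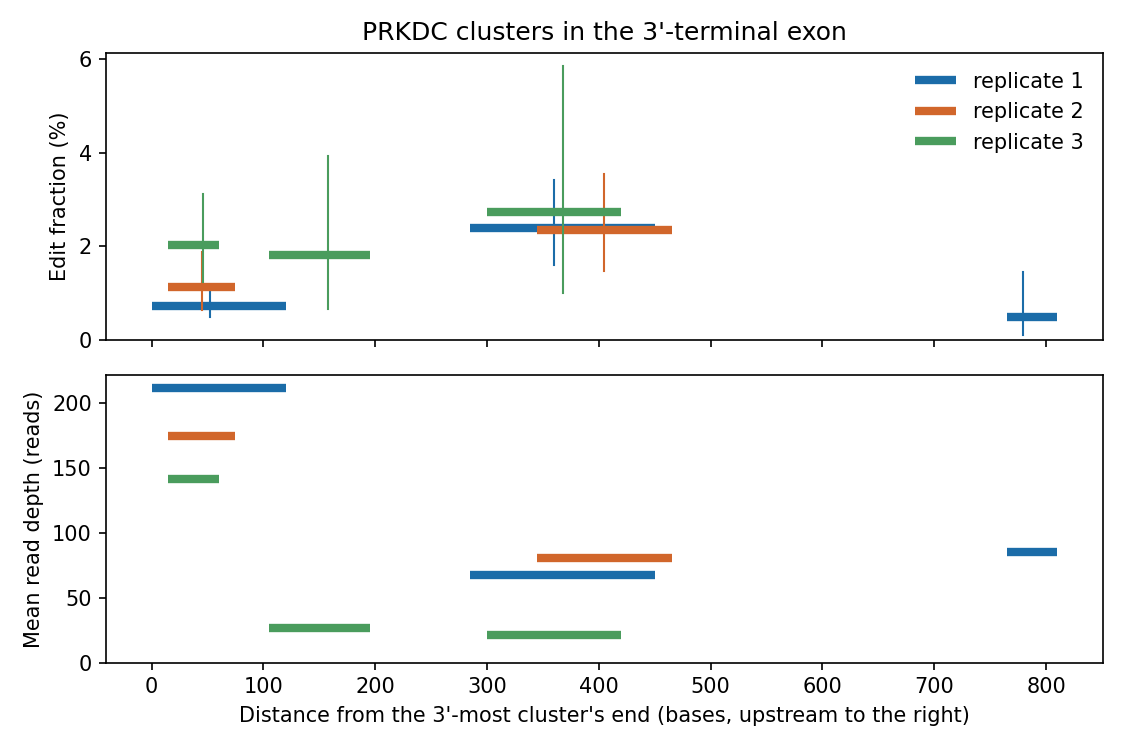
Edit fraction (top, percent) and mean read depth (bottom, reads) of each PRKDC cluster in the 3'-terminal exon, by distance in bases from the end of the cluster nearest to the 3' end. Horizontal bars span the clusters, vertical lines are exact 95% binomial intervals, and the upstream locus lies between 2.36% and 2.73% in the 3 replicates.

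The other clusters of PRKDC were seen in replicate 1 only. The cluster at chr8:48686599-48686644, in the same exon, had an edit fraction of 0.498% (3 of 603 covered C bases; interval 0.103% to 1.45%) at a read depth of 85.4. The cluster at chr8:48713504-48713547, in the exon with index 29, had 1.55% (0.709% to 2.92%), with 9 edited bases on 3 edited reads of 98. That at chr8:48830882-48830927, with index 129 and thus closer to the 5' end, had 2 edited bases at a read depth of 5.98. The read depth within PRKDC in replicate 1 therefore ranged from 5.98 to 212.

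ATM, on the plus strand of chromosome 11, had 2 clusters in each replicate, none of which overlapped a cluster of another replicate. Its edit fraction was 3.73% (10 of 268 covered C bases), 7.32% (3 of 41) and 2.91% (5 of 172) in replicates 1, 2 and 3, or 4.65% ± 2.34 (SD, n = 3). These clusters were shallow, with read depths from 4.29 to 17.5. Of the 6 clusters, 3 carried index 134, the highest index seen for ATM, and lay between chr11:108239067-108239097 and chr11:108239277-108239322. The cluster of replicate 1 at chr11:108239172-108239277 had 8 edited bases on 2 edited reads, with an edit fraction of 3.64% (1.58% to 7.04%). It ends where the cluster of replicate 3 at chr11:108239277-108239322 begins. The clusters of replicate 2 lay elsewhere, at chr11:108138018-108138063 (index 33) and chr11:108201061-108201091 (index 101), with 2 and 1 edited bases.

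MTOR, on the minus strand of chromosome 1, had 4 clusters, all in the 3'-terminal exon. Its edit fraction was 0.762% (7 of 919) in replicate 1 and 1.32% (3 of 228) in replicate 2, or 1.04% ± 0.392 (SD, n = 2), and replicate 3 had no cluster. In replicate 1 the clusters at chr1:11166772-11166817 and chr1:11166907-11166952 had 3 edited bases on 1 read and 4 edited bases on 4 reads. In replicate 2 the cluster at chr1:11166712-11166757 had 2 edited bases on 2 reads. The fourth cluster, at chr1:11167417-11167462, held 1 C base, covered 5 times and edited once, with an exact 95% interval from 0.505% to 71.6%. No pair of these clusters overlapped between replicates.

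SMG1, on the minus strand of chromosome 16, had 3, 4 and 1 clusters in replicates 1, 2 and 3, of which 6 of 8 lay in the 3'-terminal exon. Its edit fraction was 1.89% (5 of 264), 1.45% (15 of 1031) and 8.33% (1 of 12), or 3.89% ± 3.85 (SD, n = 3). Without replicate 3, which rested on a single edited base, it was 1.67% ± 0.310 (SD, n = 2). A locus at chr16:18817495-18817540 was found in replicates 1 and 3, with 1 edited read in each, of 19 and of 12 reads. The cluster with the most edited reads, at chr16:18817975-18818020 in replicate 2, had 4 edited bases on 4 reads of 49 (1.24%, interval 0.339% to 3.15%). The clusters outside that exon, with indices 40 and 99, had 1 edited read each. Near-identical pseudogene copies of SMG1 exist on chromosome 16, and how reads shared with them were placed is not given in the sources used here. Among genes with names that start with SMG1P, SMG1P1 had 1 cluster, at chr16:22486465-22486510 in replicate 3, with 2 edited reads of 17.

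TRRAP, on the plus strand of chromosome 7, had 3 clusters in replicate 2 and 1 in replicate 3. Its edit fraction was 1.35% (11 of 817) in replicate 2 and 4.35% (2 of 46) in replicate 3, or 2.85% ± 2.12 (SD, n = 2). The labels of the clusters at chr7:98610264-98610339 and chr7:98610414-98610459 name the overlapping gene AC004893.11 as well, and their reads cannot be assigned to either gene alone. Over the series, 6.27% of clusters named more than 1 gene. These clusters carried index 151, the highest seen for TRRAP, and the others, at chr7:98608994-98609024 and chr7:98602008-98602038, carried 149 and 141 with 1 edited read each.

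Across the family, recurrence between replicates was found in PRKDC and SMG1. Merged over replicates, the clusters of the members formed 26 loci, of which 2 were found in all 3 replicates (7.69%) and 1 in 2 replicates. Over all 33244 loci, 4.77% were found in all 3 replicates and 16.6% in at least 2, against 11.5% of the loci of the members. These differences in shares were not tested. Of the 21 loci of members other than PRKDC, 1 was found in more than 1 replicate.

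All clusters of the members were exonic, and intronic clusters made up 2.10% of the series. In the minus-strand members PRKDC, MTOR and SMG1, 18 of 22 clusters (81.8%) carried index 0, that of the 3'-terminal exon, against 60.8% of 19867 exonic clusters on the minus strand. The 22 clusters include those of the loci shared between replicates, and counted as loci they are 12 of 16. Clusters that rest on 1 edited read numbered 11 of 32 (34.4%), against 30.5% of all clusters. All of these were in members other than PRKDC, where they were 11 of 22. A score of at least 0.99 was reached by 23 of 32 clusters (71.9%), against 60.6% of all clusters.

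By mean edit fraction the members ranked ATM (4.65%), SMG1 (3.89%), TRRAP (2.85%), PRKDC (1.61% ± 0.499, SD, n = 3) and MTOR (1.04%). The values of the replicates overlapped between each pair of neighbours in this order. The means are over 3 replicates for ATM, SMG1 and PRKDC and over 2 for TRRAP and MTOR. Without replicate 3 the order below ATM was SMG1 (1.67%), PRKDC (1.37%), TRRAP (1.35%) and MTOR (1.04%). With at least 2 edited reads, SMG1 (1.33%) and TRRAP (1.19%), each then left with 1 replicate, lay below PRKDC (1.61%). Read depth also differed between the members, and its part in the order was not tested. The median depth was 11.5 for ATM clusters, 16.5 for SMG1, 19.9 for TRRAP, 39.5 for MTOR and 75.7 for PRKDC.

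Each cluster was also set against the median edit fraction of all non-member clusters of the same replicate, region type and depth class. The median ratio of PRKDC clusters was 1.47, 2.12 and 1.62 in replicates 1, 2 and 3, and 8 of 10 clusters were above 1. At the upstream locus of PRKDC the ratio was 2.61, 2.56 and 1.62. At the locus nearest to the 3' end it was 1.47 and 1.68 in replicates 1 and 2, and 3.03 and 1.08 in the clusters of replicate 3. By this ratio the upstream locus was thus higher in replicates 1 and 2, but lay between the clusters of the other locus in replicate 3. The median ratio of the other members was 1.52, 0.775 and 1.31, with 11 of 22 clusters above 1, so it lay on both sides of 1. The values over all members, 1.49, 0.960 and 1.32, correspond to a mean log2 ratio of 0.31 ± 0.330 (SD, n = 3), which is smaller than the spread between replicates. It exceeded its spread at a minimum score of 0.95 (0.39 ± 0.219) or 0.99 (0.39 ± 0.226), at a minimum depth of 50 (1.08 ± 0.521) and without replicate 2 (0.49 ± 0.123). It stayed below its spread with at least 2 edited reads (0.20 ± 0.494), without replicate 1 (0.17 ± 0.328) and without replicate 3 (0.26 ± 0.451). The same held with references from summed counts (0.16 ± 0.277) and without PRKDC (0.21 ± 0.510). For the settings by score and by edited reads, only the clusters of the members were filtered, and the reference medians stayed those of unfiltered clusters. A filter by score can therefore raise the ratio by itself, and its part in the values at 0.95 and 0.99 was not tested. Only 8 clusters of the members reached a depth of 50, 7 of them in PRKDC. Ratios are a description and no p is given. With 3 replicates, a mean above its SD does not show a difference from the reference clusters.

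**Figure D3:**
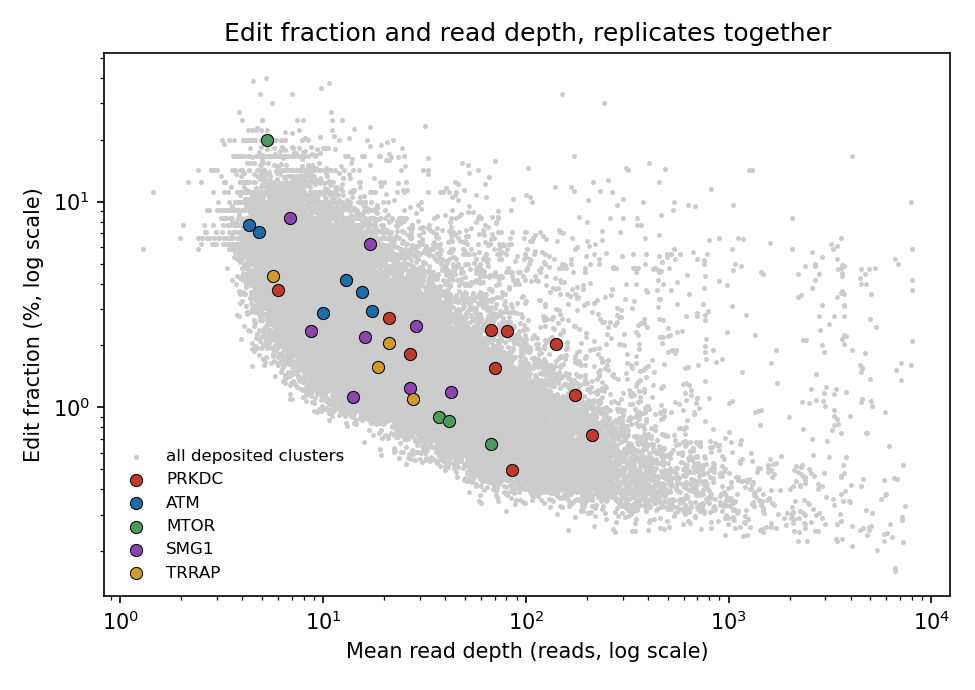
Edit fraction (percent, log scale) against mean read depth (reads, log scale) for all deposited clusters of the 3 replicates (grey) and for the clusters of the members (coloured by gene). ATM clusters lie at depths of 4.29 to 17.5, and the PRKDC clusters of the upstream locus lie above most clusters of their depth.

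The giant ubiquitin ligases HUWE1, UBR4, HERC1, HERC2, BIRC6, MYCBP2 and RNF213, which also have very long coding sequences, held 9, 12 and 5 clusters in replicates 1, 2 and 3. Their edit fraction was 2.04%, 2.66% and 1.20%, against 1.17%, 1.58% and 2.27% in the PIKK genes. UBR4 alone held 38 of the 66, 34 of the 73 and 26 of the 41 edited bases of the ligases, with an edit fraction of 4.05% ± 0.467 (SD, n = 3). In its clusters 39 of 78, 34 of 59 and 26 of 85 reads were edited, a larger share than at the PRKDC loci. The cause of this share was not tested, and UBR4 weighs on the comparison below. In replicate 1 the 39 edited reads of UBR4 exceed its 38 edited bases, so the deposited counts of reads and bases cannot rest on exactly the same edits. The difference, PIKK minus ligases, was -0.869, -1.08 and 1.07 percentage points, with a mean of -0.292 ± 1.19 (SD, n = 3; exact two-sided sign-flip permutation test, p = 0.75, where 3 replicates allow no p below 0.25). The difference changed sign between replicates and was smaller than its spread. With clusters of a score of at least 0.99 it was negative in each replicate, at -1.75 ± 0.744 percentage points (SD, n = 3; exact p = 0.25, the smallest possible), and without replicate 2 its mean was positive, at 0.102. Of the 7 ligase genes, 2 (28.6%) had clusters in all replicates, against 37.9% of all genes with a cluster.

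Genes that work with the family were counted from a list of 56 partners and substrates, of which 48 had a cluster and 16 had one in all 3 replicates. These 16 are 33.3% of those with a cluster, near the 37.9% of all genes. For DNA-PK, the Ku subunits XRCC5 and XRCC6, which load PRKDC onto DNA ends, had edit fractions of 0.777% ± 0.138 and 0.520% ± 0.0515 (SD, n = 3). XRCC5 contained 3 loci found in all replicates and XRCC6 contained 1. The ligation and end-processing genes LIG4, XRCC4, NHEJ1 and DCLRE1C had clusters in 1 replicate each.

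No gene of the ATM list (MRE11A, RAD50, NBN, CHEK2, MDC1 and TP53BP1) had clusters in all 3 replicates. ATR itself had no cluster, and 5 of its 7 partners (71.4%) had clusters in every replicate, against 37.9% of all genes with a cluster. The shares of these short partner lists ran from 0% for ATM to 71.4% for ATR, and their differences were not tested. The 5 ATR partners were the activator TOPBP1 (2.10% ± 0.264), the effector kinase CHEK1 (2.47% ± 1.06), the clamp loader RAD17 (1.70% ± 0.454), and the single-strand binding subunits RPA1 (0.923% ± 0.197) and RPA2 (0.622% ± 0.0668; all SD, n = 3). ATRIP, the obligate partner of ATR, had clusters in 2 replicates.

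Of 11 genes of the MTOR list, RPS6KB1, which encodes the ribosomal S6 kinase, had clusters in all 3 replicates (3.26% ± 1.14, SD, n = 3). RPTOR and RICTOR, which define the complexes of MTOR, had 1 and 2 clusters in all, and MLST8, DEPTOR, EIF4EBP1 and TSC2 had none. For SMG1, its subunit SMG8 (2.01% ± 0.127) and the exon junction adaptor UPF3B (1.53% ± 0.256) had clusters in every replicate (SD, n = 3). UPF1, the substrate of SMG1, had 2 clusters in all. For TRRAP these were the acetyltransferase KAT2B (4.34% ± 0.344) and the SAGA genes SUPT20H (1.99% ± 0.450) and TAF5L (3.18% ± 0.665), and KAT5 had no cluster.

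Among 9 genes that help PIKK proteins to fold and stay stable, the HSP90 genes HSP90AA1 (0.757% ± 0.0256) and HSP90AB1 (0.522% ± 0.204) and the cochaperone RPAP3 (4.52% ± 1.69) had clusters in all 3 replicates (SD, n = 3). HSP90AA1 and HSP90AB1 contained 2 loci each that were found in all replicates, at median read depths from 456 to 1003. The TTT complex genes TELO2, TTI1 and TTI2 had 2, 1 and 3 clusters in all.

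The genes most like a member were taken as those with the smallest distance over log2 edited bases and log2 covered C bases in the 3 replicates, with a pseudocount of 1, among 3733 genes. For PRKDC this was MGEA5, with 59, 36 and 34 edited bases (distance 0.72), for ATM it was ZMYM1, with 9, 2 and 7 (distance 0.79), and for SMG1 it was TMEM184B, tied with AL021977.1, with 4, 10 and 1 (distance 0.76). With 3 samples this is a description of the counts only.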

How the data were processed

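Poly(A) RNA from 3 replicates, described in the study's methods as biological replicates, was analysed from scored FLARE clusters. The submitters' processing notes name STAR and hg19. The authors called C-to-U positions with SAILOR, kept windows of 30 bases with an adjusted p-value up to 0.1, joined those at most 15 bases apart and did not pool replicates. The deposited counts (reads, edited reads, covered C bases and edited bases) are unscaled whole numbers per cluster. The fraction deposited as edit fraction equalled edited bases over covered C bases in all clusters. The deposited mean depth is a coverage signal without library scaling, and the score of the authors is a negative binomial cumulative probability.

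Values were computed with SciPy 1.17.1, pandas 2.3.3 and NumPy 2.4.6 in Python 3.11.15, figures were drawn with matplotlib 3.10.9, and the code was tested on simulated data. Gene values sum counts over clusters. Depth classes began at 0, 10, 20, 30, 40, 50, 100 and 200 reads. Intervals are exact (Clopper-Pearson) at 95% and cover counting error only, because PCR reads are not independent molecules. They also treat several edited bases of the same read as independent, which can make them too narrow. Windows below the authors' threshold were not analysed here, so missing clusters show neither absent editing nor absent expression. A gene of the partner list and a ubiquitin ligase gene are not reported here and entered no list value. Members and lists were chosen with earlier results of these data known. Named were all members, their loci in more than 1 replicate and the clusters with the most edited reads, and partners with clusters in all 3 replicates. Further clusters and partners were named after their values were seen. Alternatives covered score, depth, edited reads, overlap, summary and replicates left out. No sequence was printed, since a genome of hg19 was not used here.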

Additional observations from a re-analysis of the deposited data

How the results depend on the processing

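Of 72 alternative values of 10 results, 63 kept their direction or stayed within the spread between replicates or within 1.5 times the main count, and 30 of the 72 left out a replicate. Leaving out a replicate cannot move a mean edit fraction beyond that spread, so these edit fractions could not count as moved. Keeping exonic clusters only changed nothing, because all clusters of the members were exonic. The count of 63 therefore overstates how robust the results are. Clusters per replicate in the PIKK genes (10.7) fell to 2.67 at a minimum read depth of 50 and to 7.00 with at least 2 edited reads. The edit fraction of the PIKK genes (1.67%) was 2.30% as a median of clusters, and that of MTOR (1.04%) was 5.60%, where 1 cluster has a single C base. A gap of up to 15 bases gave 5 loci in more than 1 replicate in place of 3, adding 1 in ATM and 1 in MTOR. PIKK minus ubiquitin ligases (-0.292 percentage points) became -1.75 at a minimum score of 0.99, 0.254 at a minimum depth of 50, 0.617 with medians and 0.204 without PRKDC (chosen after seeing the data), and ranged from -0.975 to 0.102 with each replicate left out. The causes of these changes were not tested. The setting without PRKDC removed the gene with the most edited bases on the PIKK side only. UBR4, the ligase gene with the most edited bases in each replicate, was not left out, so the sign of the difference without it is not known here. Removing clusters that also name another gene, also chosen after seeing the data, left 10.0 clusters per replicate. No paired analysis was possible because the labels give no second group, and differences between gene lists or loci were taken within each replicate. The log2 depth-class ratio (0.31) ranged from 0.16 with references from summed counts to 1.08 at a minimum depth of 50. No ATM cluster was deeper than 17.5 reads, the lowest maximum among the members with clusters, and the part of depth in precision was not tested.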
